A study of Mus musculus with 6 samples.

Results

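A set of 8 genes that write, keep and remove methylation of DNA cytosines was followed through RNA-seq of a mouse neural stem cell line. They were the DNA methyltransferases Dnmt1, Dnmt3a and Dnmt3b, their cofactors Dnmt3l and Uhrf1, and the dioxygenases Tet1, Tet2 and Tet3. The members were picked by gene symbol, and all 8 were found among the 14082 genes that both deposited expression tables share (14667 genes stand in at least 1 table). All the cells were NE-4C, a line from mouse brain that lacks p53, all carried a knockout of H3f3a, which encodes histone H3.3, and all stably expressed an HA-tagged H3.3. In H3.3K27M the tagged H3.3 carried methionine in place of lysine at the residue that the group's name gives. In Cbfa2t2_KO the tagged H3.3 was wild type and Cbfa2t2, a gene for a transcriptional corepressor, had also been knocked out. In H3.3WT the tagged H3.3 was wild type and Cbfa2t2 was intact. Each group had 2 libraries, and the labels name neither clones nor cultures. The p-values therefore rest on the spread between such libraries in all groups of a fit, drawn towards that of other genes of like level. This spread may be technical.

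Cytosine methylation at CpG sites is kept through cell division by DNMT1, which is brought to newly copied DNA by UHRF1, a protein that binds half-methylated CpG sites and marks histone H3 with ubiquitin. DNMT3A and DNMT3B methylate unmarked sites, and DNMT3L, which has no catalytic activity of its own, binds them and stimulates them. TET1, TET2 and TET3 oxidise 5-methylcytosine with 2-oxoglutarate and iron, and base excision repair then returns the site to plain cytosine. In neural progenitors, Dnmt1, Dnmt3a and the TET enzymes are known for their parts in keeping cells dividing and in the timing of neuron and glia formation. In early embryos and embryonic stem cells, Dnmt3b, Dnmt3l, Tet1 and Tet2 are the typical members. The oncohistone H3.3K27M is known for lowering trimethylation of histone H3 at that lysine, a mark whose domains in the genome are set partly by DNA methylation.

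On GRCm38, Dnmt1 lies at chr9:20907209-20959888 on the minus strand and Uhrf1 at chr17:56303321-56323486 on the plus strand. Dnmt3a lies at chr12:3806007-3914443, Dnmt3b at chr2:153649450-153687730 and Dnmt3l at chr10:78041947-78063622, all on the plus strand. Tet1 lies at chr10:62804570-62908996, Tet2 at chr3:133463679-133545139 and Tet3 at chr6:83362373-83459084, all on the minus strand. All are annotated as protein-coding genes in GENCODE release M21. Their longest transcripts differ widely, from 1822 nt for Dnmt3l and 3586 nt for Uhrf1 to 10904 nt for Tet3 and 14369 nt for Tet1. Genes on the opposite strand share 133 exon bases with Dnmt3a (Dnmt3aos), 67 with Dnmt3l (Aire) and 43 with Tet2 (Gm42567). Dnmt3aos, Aire and Gm42567 were listed in neither deposited table. The strand of the libraries is not given, so reads from the shared bases cannot be told apart.

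The promoters of Uhrf1 and Dnmt1 are shown because these genes act in 1 step of maintenance methylation and are both transcribed in S phase, while the Dnmt3l promoters are shown because Dnmt3l was the member whose RNA differed most between the groups. Each sequence is a RefSeq window of 300 bases on GRCm38.p6, with 250 bases before and 50 after an annotated start. All 8 members matched, with 15 windows in all, of which Uhrf1 has 2, Dnmt1 3 and Dnmt3l 3. For Uhrf1 and Dnmt1 the window with the most CpG sites is shown, chosen with the motif matches of all windows known, while all Dnmt3l windows are shown. The windows chosen for Uhrf1 and Dnmt1 lie downstream of the other annotated starts of these genes, so they do not cover the sequence before those starts. Capitals mark the letters of 3 motifs, searched on both strands: an E2F-like word (TTTCCCGC, TTTGGCGC, TTTCGCGC or TTTGCCGC), a GC box (GGGCGG) and a CCAAT box (CCAAT). The Uhrf1 window shown lies at chr17:56304063-56304362 (plus strand), the Dnmt1 window shown at chr9:20952574-20952873 (minus strand) and the Dnmt3l windows at chr10:78042037-78042336, chr10:78049592-78049891 and chr10:78055085-78055384 (plus strand).
Uhrf1: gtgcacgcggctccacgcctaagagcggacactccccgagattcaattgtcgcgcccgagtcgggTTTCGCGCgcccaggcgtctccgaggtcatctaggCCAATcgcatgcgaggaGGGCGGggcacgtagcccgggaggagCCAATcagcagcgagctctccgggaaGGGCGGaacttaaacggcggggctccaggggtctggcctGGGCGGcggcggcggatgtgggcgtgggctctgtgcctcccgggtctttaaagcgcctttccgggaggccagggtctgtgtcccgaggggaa
Dnmt1: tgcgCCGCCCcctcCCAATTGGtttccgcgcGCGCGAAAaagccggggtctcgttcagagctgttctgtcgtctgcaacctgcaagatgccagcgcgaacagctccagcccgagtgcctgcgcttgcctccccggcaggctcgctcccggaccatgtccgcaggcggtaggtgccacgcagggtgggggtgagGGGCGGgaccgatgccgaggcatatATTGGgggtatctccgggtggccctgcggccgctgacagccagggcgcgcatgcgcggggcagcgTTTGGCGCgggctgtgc
Dnmt3l, upstream start: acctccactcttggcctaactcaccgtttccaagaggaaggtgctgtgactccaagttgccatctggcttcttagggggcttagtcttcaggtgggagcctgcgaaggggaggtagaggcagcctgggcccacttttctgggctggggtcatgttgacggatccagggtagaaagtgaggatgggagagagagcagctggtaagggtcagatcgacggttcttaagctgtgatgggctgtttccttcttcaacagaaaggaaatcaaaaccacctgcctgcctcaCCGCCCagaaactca
Dnmt3l, middle start: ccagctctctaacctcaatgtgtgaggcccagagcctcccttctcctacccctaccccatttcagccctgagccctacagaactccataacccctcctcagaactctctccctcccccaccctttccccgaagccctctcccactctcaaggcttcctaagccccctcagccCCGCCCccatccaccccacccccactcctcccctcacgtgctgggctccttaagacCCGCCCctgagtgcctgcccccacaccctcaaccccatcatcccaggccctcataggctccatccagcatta
Dnmt3l, downstream start: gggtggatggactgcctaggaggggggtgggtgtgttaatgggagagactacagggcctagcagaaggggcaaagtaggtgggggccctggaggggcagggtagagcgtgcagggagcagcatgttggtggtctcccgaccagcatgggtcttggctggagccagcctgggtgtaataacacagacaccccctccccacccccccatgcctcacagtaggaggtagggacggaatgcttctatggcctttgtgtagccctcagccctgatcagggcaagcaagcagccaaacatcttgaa
The E2F-like word stood 1 time in the Uhrf1 window shown and 2 times in the Dnmt1 window shown, and in none of the other 13 windows of the members, the second Uhrf1 window and the 2 further Dnmt1 windows included, against 2.26% of all 32851 mouse windows. A GC box stood in 35.7% and a CCAAT box in 37.4% of all windows, with 3 and 2 matches in the Uhrf1 window and 2 and 3 in the Dnmt1 window, where 2 of the CCAAT matches overlap on opposite strands. The Uhrf1 and Dnmt1 windows shown each held 33 CpG sites, more than 91.4% of all windows did, whose median was 7, while the second Uhrf1 window held 12 and the further Dnmt1 windows 2 and 12. The Dnmt3l windows held 6, 4 and 3 CpG sites. The other members' windows ranged more widely, with 30 CpG sites for Dnmt3b, 17 for Tet1, 57 for Tet2, 22 for Tet3 and up to 47 for Dnmt3a. A match describes letters and is not a measured binding site.

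Levels are the authors' FPKM, a count of fragments scaled to transcript length and library size, which sets genes side by side per length. Long transcripts had lower values in library 2 of H3.3K27M and of Cbfa2t2_KO, so levels of Dnmt3a and the TET genes beside those of shorter members also carry that difference there. The FPKM of a library summed to between 363586 and 419389, and its depth in reads is unknown. Of the genes behind the labels, Cbfa2t2 had 2.02 and 0.856 FPKM in H3.3K27M, where it was not targeted, and 1.02 and 0.769 FPKM in Cbfa2t2_KO, against 1.38 and 1.35 FPKM in H3.3WT. A value over the whole gene does not show whether its reading frame was broken. H3f3a, whose tagged copy was expressed in all groups, had 77.3 and 66.8 FPKM in H3.3K27M and 82.1 and 66.3 FPKM in Cbfa2t2_KO, against 131 and 181 FPKM in H3.3WT. Of 12 markers of neural stem cells, Sox1 and Fabp7 were absent from at least 1 table and Pax6 stayed below 1 FPKM in every library, while Nes had 14.3 to 38.8 FPKM and Sox2 9.55 to 34.4 FPKM. Of 11 pluripotency markers, Zfp42 and Tbx3 were absent from at least 1 table, while Pou5f1 had 919 to 1351 FPKM and Nanog 2.85 to 9.86 FPKM. The libraries thus held RNA of some markers of each kind. The labelled neural stem cell type lacked part of its defining markers, and the pluripotency list lacked part of its own.

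The order of the 8 levels was largely the same in the 3 groups. Dnmt3b stood highest, followed by Uhrf1, Dnmt1 and Dnmt3a, with the TET genes below all of these, and this held in each of the 6 libraries. Dnmt3b had more FPKM than 92.2% to 96.3% of the 14082 shared genes across the 6 libraries, Uhrf1 more than 89.9% to 94.2%, Dnmt1 more than 87.9% to 92.4% and Dnmt3a more than 70.7% to 83.0%. Tet3 passed 29.8% to 45.2% of these genes, Tet1 21.9% to 39.2% and Tet2 6.37% to 19.6%. Uhrf1 and Dnmt1 overlapped in H3.3K27M and in H3.3WT, but not in Cbfa2t2_KO. Dnmt3l changed its place in the order, standing above the TET genes in H3.3K27M, last in Cbfa2t2_KO and between Tet1 and Tet2 in H3.3WT. In H3.3K27M, Dnmt3l, Tet3 and Tet1 each overlapped the next gene down, so their order there is not settled by 2 libraries.

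**Figure D1:**
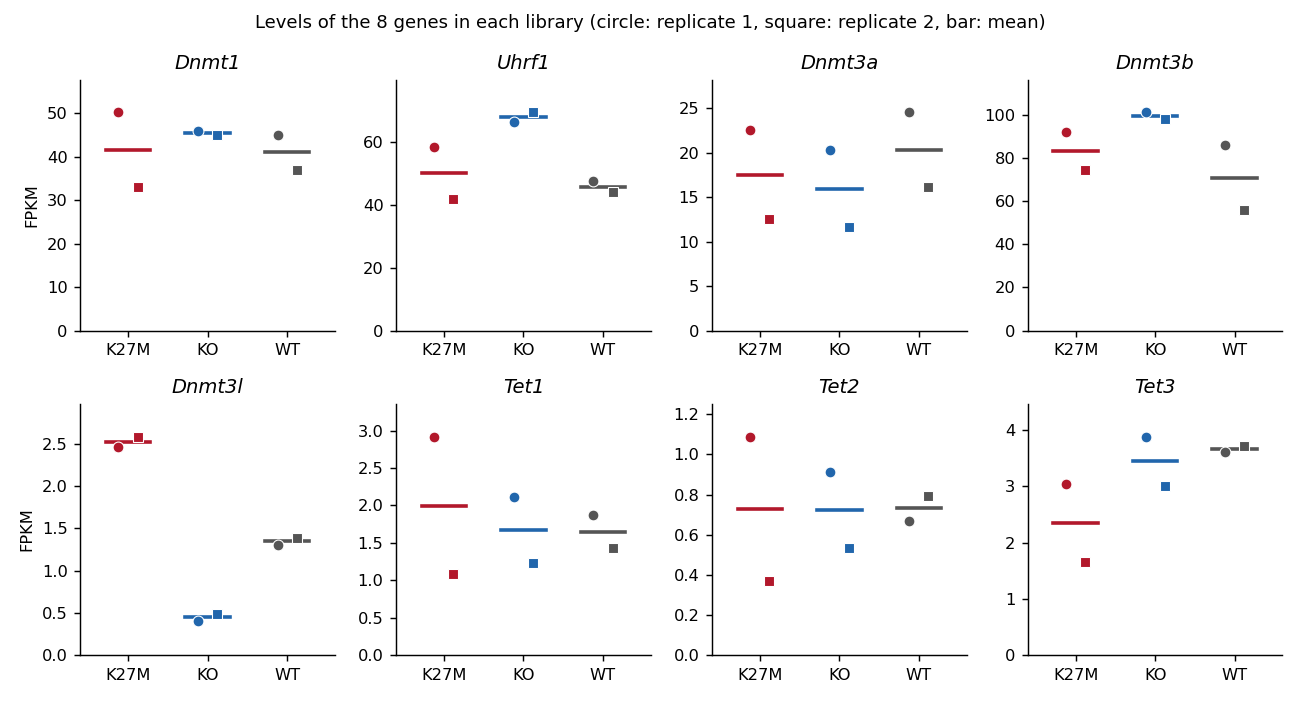
FPKM (vertical axes, each from 0) of the 8 genes in the H3.3K27M, Cbfa2t2_KO and H3.3WT libraries (K27M, KO and WT). Circles are replicate 1, squares replicate 2 and bars the mean of the 2. Dnmt3l has 3 separate pairs of points, Uhrf1 is higher in KO than in both other groups, and the K27M points of the long TET genes lie far apart.

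The comparison of Cbfa2t2_KO with H3.3WT asked which of these genes differed after loss of Cbfa2t2. Uhrf1 was higher in Cbfa2t2_KO, Dnmt3l was lower but fell under the level needed for the test, and Dnmt1 and the TET genes had group ranges that overlapped. Of the 6 members with a mean of at least 1 FPKM over the 4 libraries, 1 passed an adjusted p of 0.05, while 34.6% of all 11626 genes tested did. The tested members had a median log2 change of 0.07, against -0.11 over all genes tested. Across many genes the tests here are limma's moderated test on log2(FPKM + 1) with Benjamini-Hochberg adjustment, so fold changes are on that scale and understate the change of low genes. With 2 against 2 libraries, an exact permutation test could not give a p below 0.333.

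Uhrf1 RNA was measured at 66.5 and 69.5 FPKM in the Cbfa2t2_KO libraries, against 47.7 and 44.0 FPKM in the H3.3WT libraries. Both knockout libraries lay above both H3.3WT libraries, with means of 68.0 ± 2.10 FPKM in Cbfa2t2_KO and 45.8 ± 2.59 FPKM in H3.3WT (SD, n = 2 each) and a ratio of 1.48. The log2 change was 0.56 ± 0.13 (SE, 95% interval 0.26 to 0.86, limma adjusted p = 0.0147). The call was lost when H3.3WT replicate 2 (adjusted p = 0.0724), Cbfa2t2_KO replicate 1 (adjusted p = 0.0513) or Cbfa2t2_KO replicate 2 (adjusted p = 0.0841) was left out, with log2 changes of 0.50 to 0.62 over the 4 omissions. With GC content and transcript length corrected, the change was 0.53 (adjusted p = 0.00810).

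Dnmt1, the methyltransferase that UHRF1 brings to DNA, was measured at 45.8 and 44.9 FPKM in Cbfa2t2_KO, against 45.1 and 36.9 FPKM in H3.3WT. The groups overlapped, with means of 45.3 ± 0.649 and 41.0 ± 5.81 FPKM in Cbfa2t2_KO and H3.3WT (SD, n = 2 each) and a log2 change of 0.15 ± 0.15 (SE, 95% interval -0.19 to 0.49, limma adjusted p = 0.457). Uhrf1 per Dnmt1 was 1.45 and 1.55 in the Cbfa2t2_KO libraries, against 1.06 and 1.19 in the H3.3WT libraries. These ratios did not overlap.

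Dnmt3b, the most abundant of the 8, was measured at 101.1 and 97.9 FPKM in Cbfa2t2_KO, against 85.8 and 55.9 FPKM in H3.3WT. Both knockout libraries were above both H3.3WT libraries, yet the H3.3WT pair lay far apart and the change missed the threshold, at a log2 change of 0.52 ± 0.20 (SE, 95% interval 0.058 to 0.97, limma adjusted p = 0.0778). It passed with median-of-ratios scaling (0.64, adjusted p = 0.0324) and without H3.3WT replicate 1 (0.82, adjusted p = 0.0120), the higher of the 2 H3.3WT libraries. Without H3.3WT replicate 2 the log2 change was 0.21.

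Dnmt3a, the other de novo enzyme, was measured at 20.3 and 11.6 FPKM in Cbfa2t2_KO, against 24.5 and 16.2 FPKM in H3.3WT. In each group replicate 1 was the higher library, the groups overlapped and the log2 change was -0.35 ± 0.27 (SE, 95% interval -0.99 to 0.28, limma adjusted p = 0.347). Dnmt3b per Dnmt3a was 4.99 and 8.42 in Cbfa2t2_KO, against 3.50 and 3.46 in H3.3WT.

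Dnmt3l, the cofactor with no activity of its own, was measured at 0.404 and 0.486 FPKM in Cbfa2t2_KO, against 1.31 and 1.38 FPKM in H3.3WT. The libraries of each group lay close together, the groups did not overlap, and the H3.3WT mean was 3.03 times that of Cbfa2t2_KO. Its mean over these 4 libraries, 0.896 FPKM, kept it out of the test at the 1 FPKM minimum. Without that minimum the log2 change was -0.70 (limma adjusted p = 0.0151). No p is given from the fit of all 6 libraries, whose minimum it passed only through its H3.3K27M level. Of all 8 members, Dnmt3l, Uhrf1 and Dnmt3b had groups without overlap, and of the 6 tested only Uhrf1 and Dnmt3b did, where 70.4% of all tested genes had none.

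The TET genes were close to H3.3WT in their means. Tet1 had 2.11 and 1.23 FPKM in Cbfa2t2_KO, against 1.87 and 1.43 FPKM in H3.3WT, with a log2 change of -0.0054 ± 0.21 (SE, 95% interval -0.49 to 0.47, limma adjusted p = 0.986). Tet3, the highest of the 3, had 3.88 and 3.01 FPKM in Cbfa2t2_KO, against 3.62 and 3.72 FPKM in H3.3WT, with a log2 change of -0.078 ± 0.18 (SE, 95% interval -0.50 to 0.34, limma adjusted p = 0.763). The signs of both changes flipped under scaling, with 0.071 for Tet1 and 0.023 for Tet3 after median-of-ratios scaling and 0.089 and 0.043 after quantile normalization. Tet2 had 0.913 and 0.536 FPKM in Cbfa2t2_KO, against 0.668 and 0.794 FPKM in H3.3WT, and was below the minimum for the test in all 3 comparisons. The 3 TET genes together had 6.91 and 4.77 FPKM in Cbfa2t2_KO, against 6.15 and 5.95 FPKM in H3.3WT.

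The comparison of H3.3K27M with H3.3WT asked which of these genes differed with the mutant histone. Dnmt3l was higher in H3.3K27M, Tet3 was lower in both libraries without passing the test, and the other members overlapped H3.3WT. Of the 7 members tested, 1 passed an adjusted p of 0.05, while 26.2% of all 11623 genes tested did. The members' median log2 change was 0.11, against -0.12 over all genes.

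Dnmt3l was measured at 2.46 and 2.59 FPKM in H3.3K27M, against 1.31 and 1.38 FPKM in H3.3WT. Both mutant libraries were above both H3.3WT libraries, with means of 2.53 ± 0.0891 FPKM in H3.3K27M and 1.35 ± 0.0510 FPKM in H3.3WT (SD, n = 2 each) and a ratio of 1.88. The log2 change was 0.59 ± 0.18 (SE, 95% interval 0.19 to 0.99, limma adjusted p = 0.0397). The call was lost in each omission of 1 library, with adjusted p = 0.0637 without H3.3K27M replicate 1, 0.0991 without H3.3K27M replicate 2, 0.173 without H3.3WT replicate 1 and 0.147 without H3.3WT replicate 2, and with log2 changes of 0.56 to 0.61. With GC content and transcript length corrected it was 0.61 (adjusted p = 0.0199). On a pseudocount of 0.1 FPKM, which compresses a low gene less, it was 0.86 (adjusted p = 0.0465).

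Tet3, a TET enzyme of neurons and oocytes, was measured at 3.05 and 1.65 FPKM in H3.3K27M, against 3.62 and 3.72 FPKM in H3.3WT. Both mutant libraries lay below both H3.3WT libraries, but they differed from each other on the log2 scale by more than the group means did. The log2 change was -0.51 ± 0.23 (SE, 95% interval -1.04 to 0.021, limma adjusted p = 0.136). It passed without H3.3K27M replicate 1 (-0.82, adjusted p = 0.0351) and shrank to -0.19 (adjusted p = 0.37) with GC content and transcript length corrected. Tet3 and Dnmt3l were the 2 of 8 members whose groups did not overlap, beside 66.3% of all tested genes.

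Tet1, which oxidises methylcytosine in stem cells, was measured at 2.92 and 1.08 FPKM in H3.3K27M, against 1.87 and 1.43 FPKM in H3.3WT. Tet2, known from blood and stem cells, was measured at 1.09 and 0.369 FPKM in H3.3K27M, against 0.668 and 0.794 FPKM in H3.3WT. For both genes 1 mutant library lay above and 1 below both H3.3WT libraries. The log2 change of Tet1 was 0.11 ± 0.29 (SE, 95% interval -0.54 to 0.77, limma adjusted p = 0.799). Tet3 made up 43.2% and 53.3% of summed TET FPKM in H3.3K27M and 56.2% and 63.1% in Cbfa2t2_KO, against 58.8% and 62.6% in H3.3WT.

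Among the methyltransferases, Dnmt1 was measured at 50.2 and 33.1 FPKM in H3.3K27M, against 45.1 and 36.9 FPKM in H3.3WT, with a log2 change of 0.00020 ± 0.22 (SE, 95% interval -0.51 to 0.51, limma adjusted p = 0.9995). Uhrf1 was measured at 58.3 and 41.9 FPKM in H3.3K27M, against 47.7 and 44.0 FPKM in H3.3WT, with a log2 change of 0.11 ± 0.19 (SE, 95% interval -0.34 to 0.55, limma adjusted p = 0.709). In both genes the H3.3WT pair lay inside the H3.3K27M pair. Dnmt3a was measured at 22.5 and 12.6 FPKM in H3.3K27M, against 24.5 and 16.2 FPKM in H3.3WT, with a log2 change of -0.23 ± 0.29 (SE, 95% interval -0.88 to 0.43, limma adjusted p = 0.581). Dnmt3b was measured at 91.9 and 74.6 FPKM in H3.3K27M, against 85.8 and 55.9 FPKM in H3.3WT, with a log2 change of 0.25 ± 0.23 (SE, 95% interval -0.27 to 0.77, limma adjusted p = 0.436). In these de novo genes the groups overlapped as well.

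H3.3K27M was also set against Cbfa2t2_KO in the fit of all 6 libraries. Dnmt3l was higher in H3.3K27M, Uhrf1 and Dnmt3b were lower in both H3.3K27M libraries without passing the test, and the other tested members overlapped. Of the 7 members tested, only Dnmt3l passed an adjusted p of 0.05, and its mean reached the minimum through H3.3K27M and H3.3WT alone. The other members tested did not pass, while 7.80% of all 11601 genes tested did (3.12% higher and 4.68% lower). Dnmt3l averaged 2.53 ± 0.0891 FPKM in H3.3K27M and 0.445 ± 0.0580 FPKM in Cbfa2t2_KO (SD, n = 2 each), a ratio of 5.68. Its log2 change was 1.29 ± 0.15 (SE, 95% interval 0.94 to 1.63, limma adjusted p = 0.00599), and the call was lost without Cbfa2t2_KO replicate 2 (1.33, adjusted p = 0.0524). It passed the 1 FPKM minimum through its H3.3K27M and H3.3WT levels, not its Cbfa2t2_KO level, so its call adds nothing to the count of members. With no minimum the log2 change was 1.29 (adjusted p = 0.00932). With a pseudocount of 0.1 FPKM the log2 change was 2.27, and with GC content and transcript length corrected it was 1.37.

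Uhrf1 averaged 50.1 ± 11.6 FPKM in H3.3K27M and 68.0 ± 2.10 FPKM in Cbfa2t2_KO (SD, n = 2 each), with a log2 change of -0.45 ± 0.18 (SE, limma adjusted p = 0.135) that passed without H3.3K27M replicate 1 (-0.69, adjusted p = 0.0467). Uhrf1 per Dnmt1 was 1.16 and 1.27 in H3.3K27M, against 1.45 and 1.55 in Cbfa2t2_KO. Dnmt3b averaged 83.2 ± 12.2 FPKM in H3.3K27M and 99.5 ± 2.25 FPKM in Cbfa2t2_KO (SD, n = 2 each), with a log2 change of -0.26 ± 0.21 (SE, limma adjusted p = 0.438). With Dnmt3l, these were the 3 of 8 members whose groups did not overlap, beside 58.2% of all tested genes. The log2 changes of the remaining tested members were -0.15 for Dnmt1 (95% interval -0.61 to 0.31), 0.12 for Dnmt3a (-0.61 to 0.85), 0.12 for Tet1 (-0.54 to 0.78) and -0.43 for Tet3 (-0.95 to 0.082). The median log2 change of the tested members was -0.15, against -0.019 over all genes.

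**Figure D2:**
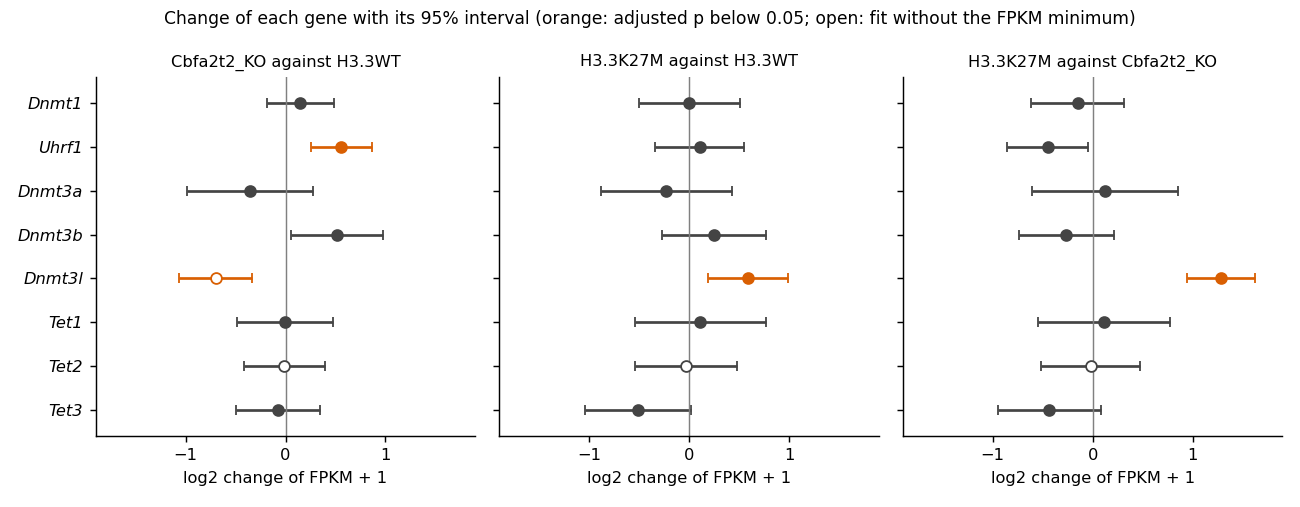
Log2 change of FPKM + 1 (horizontal axes) for each gene in Cbfa2t2_KO against H3.3WT, H3.3K27M against H3.3WT and H3.3K27M against Cbfa2t2_KO, with 95% intervals. Orange marks an adjusted p below 0.05 and open points come from the fit with no FPKM minimum. Dnmt3l lies left of 0 in the first panel and right of 0 in the others, and Uhrf1 is orange in the first panel.

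Proportions of members within a library were then set side by side across the groups. Dnmt3l was 2.68% and 3.47% of Dnmt3b in the H3.3K27M libraries and 0.399% and 0.496% in the Cbfa2t2_KO libraries, against 1.53% and 2.47% in the H3.3WT libraries. These pairs did not overlap, although the H3.3WT pair moved with Dnmt3b, which was lower in its replicate 2. Dnmt3b per Dnmt3a was 4.08 and 5.93 in H3.3K27M, so both mutant libraries and both knockout libraries were above the 2 H3.3WT libraries. The longest transcript has 4320 nt for Dnmt3b and 9685 nt for Dnmt3a, and in both lines the ratio was higher in replicate 2, the library with lower values for long transcripts. The part of length in these ratios was not tested. The groups of Uhrf1 per Dnmt1 were apart for Cbfa2t2_KO and overlapped between H3.3K27M and H3.3WT.

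**Figure D3:**
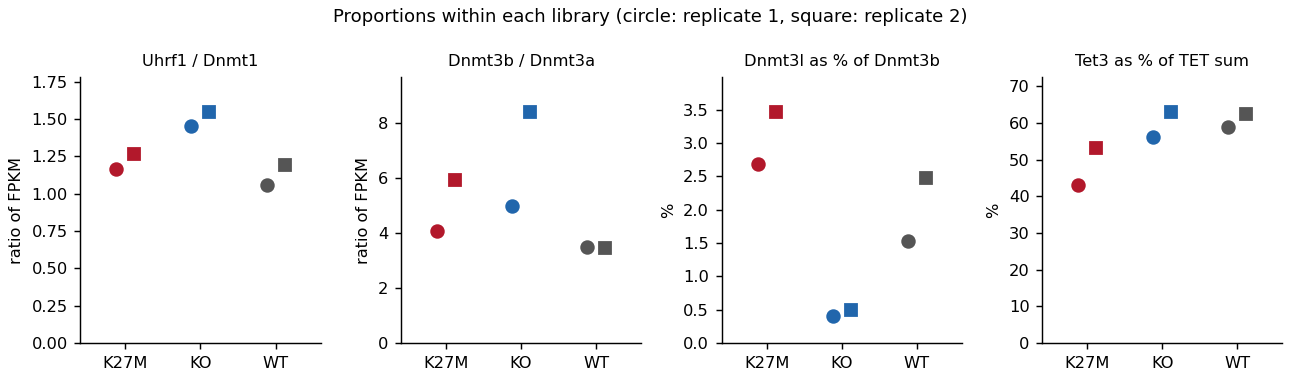
Proportions of members within each library, as ratios of FPKM or percent (vertical axes, from 0), in K27M, KO and WT. Circles are replicate 1 and squares replicate 2. Uhrf1 per Dnmt1 is highest in KO, at 1.45 and 1.55, and Dnmt3l as a share of Dnmt3b is below 0.5% in KO and above 2.6% in K27M.

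Library 2 of H3.3K27M and of Cbfa2t2_KO had lower values for long transcripts, and Dnmt3a and the 3 TET genes have transcripts of over 9000 nt. Over 296 genes whose longest transcript has 9000 nt or more, the median log2 difference of replicate 2 from replicate 1 was -0.57 in H3.3K27M and -0.33 in Cbfa2t2_KO, against -0.015 in H3.3WT. Over genes under 2000 nt it was 0.19 in H3.3K27M and 0.092 in Cbfa2t2_KO, against 0.054 in H3.3WT. In H3.3K27M the members with the largest drop were Tet1 (-0.91) and Dnmt3a (-0.79), then Tet3 and Tet2 (both -0.61) and Dnmt1 (-0.59), while the short Dnmt3l had 0.052. Uhrf1 (-0.47) dropped by more than the median of genes of its length there (-0.036), and so did Dnmt1 (median -0.22). In Cbfa2t2_KO, Dnmt3a had -0.75 and Tet1 -0.48, whereas Uhrf1 had 0.062 and Dnmt1 -0.029. In H3.3WT, Dnmt3b (-0.61) and Dnmt3a (-0.57) differed between replicates, where the medians of the length classes ran from 0.054 to -0.015. The group differences of all genes moved with length as well: the median log2 change from H3.3WT over the longest genes was -0.25 in H3.3K27M and -0.26 in Cbfa2t2_KO, against -0.0055 and -0.031 for the same lines over the shortest. The part of this trend in the members' changes was measured only through the corrected values given above.

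**Figure D4:**
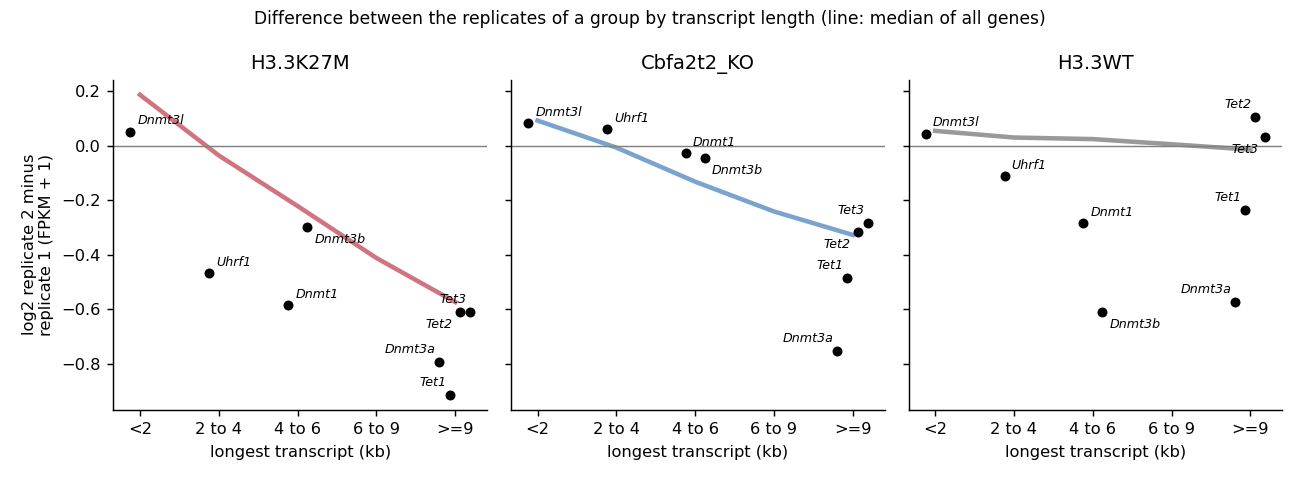
Log2 difference of FPKM + 1 between replicate 2 and replicate 1 (vertical axis) by the length of the longest transcript in kb (horizontal axis), in H3.3K27M, Cbfa2t2_KO and H3.3WT. Lines are medians over all tested genes in 5 length classes and points are the 8 genes, placed side by side within a class. The line falls to -0.57 in H3.3K27M, and Dnmt3a lies at -0.57 or lower in all 3 groups.

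Genes that work with the members in the same pathway were read as 9 lists. Counts are of genes past an adjusted p of 0.05, to be set beside the 34.6% of all genes called in Cbfa2t2_KO (13.1% higher and 21.5% lower) and the 26.2% called in H3.3K27M (8.42% higher and 17.8% lower). With median-of-ratios scaling, 50.8% of the calls in Cbfa2t2_KO were higher (37.9% as deposited), and 49.0% in H3.3K27M (32.1% as deposited). The lists get no test of their own. For each list the 2 called genes with the largest change are described.

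Among 18 partners of maintenance methylation, 4 rose and 3 fell in H3.3K27M, and 3 rose and 5 fell in Cbfa2t2_KO, each against H3.3WT. Pclaf, a PCNA-binding protein that helps recruit DNMT1, averaged 16.7 ± 3.99 FPKM in H3.3K27M and 12.1 ± 2.90 FPKM in Cbfa2t2_KO, against 5.78 ± 0.334 FPKM in H3.3WT (SD, n = 2 each). Its log2 change was 1.37 in H3.3K27M (limma adjusted p = 0.00362) and 0.93 in Cbfa2t2_KO (limma adjusted p = 0.00970, and 0.0517 without Cbfa2t2_KO replicate 1). Zbtb24, a zinc-finger factor mutated in human immunodeficiency with centromeric instability, averaged 2.73 ± 0.288 FPKM in H3.3K27M and 2.93 ± 0.223 FPKM in Cbfa2t2_KO, against 6.96 ± 0.653 FPKM in H3.3WT (SD, n = 2 each). It fell by 1.09 in H3.3K27M (limma adjusted p = 0.00582, and 0.0508 without H3.3WT replicate 2) and by 1.02 in Cbfa2t2_KO (limma adjusted p = 0.00428), on the log2 scale.

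Of 15 tested partners of de novo methylation, 0 rose and 2 fell in H3.3K27M, and 1 rose and 4 fell in Cbfa2t2_KO. Zfp445, a KRAB zinc-finger protein that protects imprints, fell by 1.27 on the log2 scale in Cbfa2t2_KO (limma adjusted p = 0.0057). In H3.3K27M its log2 change was -0.60 (limma adjusted p = 0.0607, and 0.0121 with GC content and transcript length corrected and 0.0479 with limma's robust option). Setd2, which writes the H3K36 trimethylation that DNMT3B reads, fell by 0.99 on the log2 scale in Cbfa2t2_KO (limma adjusted p = 0.0165, and 0.0813 without H3.3WT replicate 2 and 0.0906 without Cbfa2t2_KO replicate 2). Its level was 1.57 ± 0.791 FPKM there and 2.40 ± 0.876 FPKM in H3.3K27M (log2 change -0.57, limma adjusted p = 0.101, and 0.0265 with GC content and transcript length corrected), against 3.99 ± 0.662 FPKM in H3.3WT (SD, n = 2 each).

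Of 15 tested readers of methylated CpG sites, 2 rose and 3 fell in each of H3.3K27M and Cbfa2t2_KO, but 0 fell in H3.3K27M with median-of-ratios scaling or quantile normalization. Zbtb33 (Kaiso), which binds methylated CpG pairs, had a log2 change of -0.88 in Cbfa2t2_KO (limma adjusted p = 0.0188, and 0.099 without H3.3WT replicate 2 and 0.111 without Cbfa2t2_KO replicate 2). In H3.3K27M its log2 change was -0.59 (limma adjusted p = 0.0607, and 0.0109 with GC content and transcript length corrected and 0.0447 with limma's robust option). Uhrf2, the paralog of Uhrf1 that reads 5-hydroxymethylcytosine, averaged 5.94 ± 1.27 FPKM in Cbfa2t2_KO, against 11.5 ± 0.210 FPKM in H3.3WT (SD, n = 2 each). Its log2 change there was -0.86 (limma adjusted p = 0.0099, and 0.0631 without Cbfa2t2_KO replicate 2), the other direction from Uhrf1, while in H3.3K27M it was -0.22 (limma adjusted p = 0.361).

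Of 15 tested genes of demethylation by base excision repair, 0 rose and 4 fell in each line, while 1 rose in each line with either other scaling. Gadd45g, a stress-induced adaptor linked to DNA demethylation, was the member of all 9 lists with the largest drop. It had 2.89 and 4.92 FPKM in H3.3K27M and 5.49 and 4.93 FPKM in Cbfa2t2_KO, against 38.6 and 44.2 FPKM in H3.3WT. The log2 change was -3.14 in H3.3K27M (limma adjusted p = 0.000776) and -2.77 in Cbfa2t2_KO (limma adjusted p = 0.000118). Ung, a uracil DNA glycosylase, had 18.9 and 19.2 FPKM in H3.3K27M and 19.2 and 20.2 FPKM in Cbfa2t2_KO, against 40.9 and 42.5 FPKM in H3.3WT, and fell by 1.09 and 1.04 on the log2 scale in those lines (limma adjusted p = 0.00314 and 0.00156).

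Of 15 tested partners and regulators of TET enzymes, 1 rose and 4 fell in H3.3K27M, and 3 rose and 5 fell in Cbfa2t2_KO. Ogt, the O-GlcNAc transferase that binds TET proteins, had 16.7 and 11.4 FPKM in H3.3K27M and 14.4 and 9.14 FPKM in Cbfa2t2_KO, against 2.27 and 3.46 FPKM in H3.3WT. The log2 change was 1.95 in H3.3K27M (limma adjusted p = 0.00191) and 1.71 in Cbfa2t2_KO (limma adjusted p = 0.00229). Mgea5, the O-GlcNAcase that removes the same sugar, went the other way, with 16.1 ± 3.58 FPKM in H3.3K27M and 18.4 ± 3.73 FPKM in Cbfa2t2_KO, against 49.3 ± 7.04 FPKM in H3.3WT (SD, n = 2 each). Its log2 change was -1.56 in H3.3K27M (limma adjusted p = 0.00209) and -1.38 in Cbfa2t2_KO (limma adjusted p = 0.00161).

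Of 20 enzymes that make or use 2-oxoglutarate or 2-hydroxyglutarate, 4 rose and 1 fell in H3.3K27M, and 5 rose and 4 fell in Cbfa2t2_KO. Idh1, the cytosolic isocitrate dehydrogenase that makes the TET cosubstrate, averaged 52.4 ± 14.8 FPKM in H3.3K27M and 41.0 ± 6.93 FPKM in Cbfa2t2_KO, against 19.3 ± 4.63 FPKM in H3.3WT (SD, n = 2 each). It rose by 1.39 on the log2 scale in H3.3K27M (limma adjusted p = 0.00563) and by 1.06 in Cbfa2t2_KO (limma adjusted p = 0.00585). Idh2, its mitochondrial relative, averaged 44.7 ± 0.568 FPKM in H3.3K27M and 81.4 ± 6.79 FPKM in Cbfa2t2_KO, against 29.1 ± 3.81 FPKM in H3.3WT (SD, n = 2 each). Its log2 change was 1.46 in Cbfa2t2_KO (limma adjusted p = 0.000898) and 0.61 in H3.3K27M (limma adjusted p = 0.0307, and 0.0600 to 0.217 when any 1 library was left out). Set directly against Cbfa2t2_KO, Idh2 was lower in H3.3K27M by a log2 change of -0.85 (limma adjusted p = 0.0200, and 0.0575, 0.177 and 0.0636 without Cbfa2t2_KO replicate 1, Cbfa2t2_KO replicate 2 and H3.3K27M replicate 2).

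Of 15 tested genes of the S-adenosylmethionine cycle, which supplies the methyl group, 4 rose and 2 fell in H3.3K27M (7 and 1 with either other scaling), and 7 rose and 3 fell in Cbfa2t2_KO. Mat2a, which makes S-adenosylmethionine, had 43.4 and 42.0 FPKM in H3.3K27M and 30.0 and 24.4 FPKM in Cbfa2t2_KO, against 96.0 and 97.3 FPKM in H3.3WT. It fell by 1.16 in H3.3K27M (limma adjusted p = 0.00254) and by 1.80 in Cbfa2t2_KO (limma adjusted p = 0.000418), on the log2 scale. Ahcy, which clears the product S-adenosylhomocysteine, averaged 159 ± 5.86 FPKM in H3.3K27M and 157 ± 16.3 FPKM in Cbfa2t2_KO, against 69.5 ± 17.0 FPKM in H3.3WT (SD, n = 2 each). It rose by 1.21 in H3.3K27M (limma adjusted p = 0.00505, and 0.0511 without H3.3WT replicate 2) and by 1.18 in Cbfa2t2_KO (limma adjusted p = 0.0030).

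Of 35 germline and imprinted genes that DNA methylation is known to silence, 6 stood in a table and 3 were tested against H3.3WT. Tuba3a, a testis tubulin, was the 1 called and was lower in both lines, with 0.429 ± 0.147 FPKM in H3.3K27M and 0.717 ± 0.163 FPKM in Cbfa2t2_KO, against 1.82 ± 0.668 FPKM in H3.3WT (SD, n = 2 each). It passed the minimum through the H3.3WT level, its reads may be shared with the near-identical Tuba3b, and its call was lost without H3.3K27M replicate 1 (adjusted p = 0.0531) and without either Cbfa2t2_KO library (adjusted p = 0.126 and 0.0823). Without H3.3WT replicate 2 it fell under the FPKM minimum. Igf2, an imprinted growth factor, was lower in H3.3K27M than in Cbfa2t2_KO, with a log2 change of -0.85 (limma adjusted p = 0.0444, and 0.0535 to 0.276 when any 1 library was left out, 0.0520 with no FPKM minimum, 0.0516 with quantile normalization and 0.0626 with GC content and transcript length corrected). Genes under 0.500 FPKM in every library of a table are not listed in it, so the silent members of this list are not seen.

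Of 38 S-phase and replication genes, with which Dnmt1 and Uhrf1 are usually transcribed, 8 rose and 3 fell in H3.3K27M, and 7 rose and 6 of 37 tested fell in Cbfa2t2_KO. The median log2 change was 0.15 in H3.3K27M, against -0.12 over all genes, and 0.021 in Cbfa2t2_KO, against -0.11 over all genes. Fen1, the flap endonuclease of Okazaki fragments, had 27.6 and 62.4 FPKM in H3.3K27M and 30.0 and 77.8 FPKM in Cbfa2t2_KO, against 121 and 133 FPKM in H3.3WT. The 2 libraries of each line differed more than 2-fold, and the log2 changes were -1.59 (limma adjusted p = 0.00973, and 0.0593 without H3.3WT replicate 2) and -1.37 (limma adjusted p = 0.0222, and 0.0761 without H3.3WT replicate 2 and 0.163 with limma's robust option) in H3.3K27M and Cbfa2t2_KO. Gins3, a subunit of the replicative helicase, had a log2 change of -0.88 in H3.3K27M (limma adjusted p = 0.0131, and 0.0733 and 0.0790 without H3.3WT replicates 1 and 2) and -1.35 in Cbfa2t2_KO (limma adjusted p = 0.0017).

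**Figure D5:**
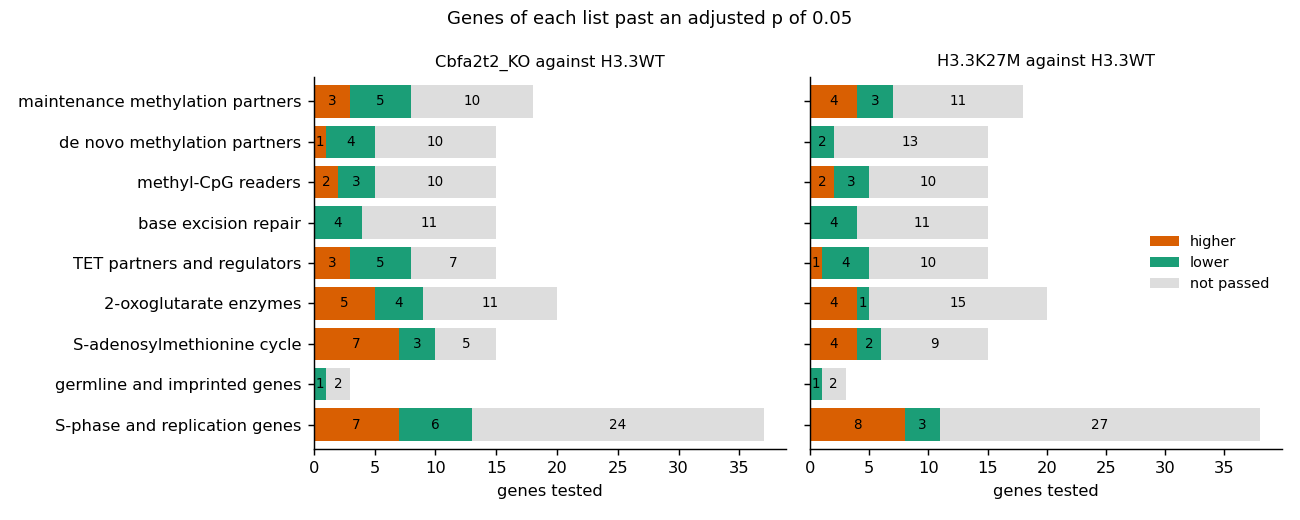
Number of tested genes (horizontal axes) of 9 pathway lists that were higher (orange), lower (green) or did not pass (grey) at an adjusted p of 0.05 in Cbfa2t2_KO and in H3.3K27M, each against H3.3WT. Values are as deposited: base excision repair has 4 lower and 0 higher genes in both panels (1 higher in each line with either other scaling), and the S-adenosylmethionine cycle has 7 higher and 3 lower genes in Cbfa2t2_KO.

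The counts of these lists depended on the scaling and on single libraries. In H3.3K27M, median-of-ratios scaling gave 4 higher and 1 lower for maintenance partners, 0 and 1 for de novo partners, 2 and 0 for readers, 1 and 2 for base excision repair, 2 and 3 for TET partners, 4 and 1 for 2-oxoglutarate enzymes, 7 and 1 for the S-adenosylmethionine cycle and 10 and 3 for S-phase genes. In Cbfa2t2_KO it gave 5 higher and 5 lower for maintenance partners, 1 and 4 for de novo partners, 3 and 2 for readers, 1 and 4 for base excision repair, 3 and 5 for TET partners, 6 and 2 for 2-oxoglutarate enzymes, 7 and 3 for the S-adenosylmethionine cycle and 8 and 5 for S-phase genes. Quantile normalization gave counts within 1 gene of these in each list and direction. When each library was left out in turn, the genes called in H3.3K27M ran from 1 to 3 higher and 0 to 3 lower for maintenance partners, 0 higher and 0 to 4 lower for de novo partners, and 0 to 1 higher and 0 to 5 lower for readers. In Cbfa2t2_KO the same lists had 0 to 1 higher and 4 to 5 lower, 0 to 1 higher and 1 to 4 lower, and 0 to 2 higher and 0 to 2 lower. Base excision repair had 0 higher genes in each omission, with 2 to 3 lower in H3.3K27M and 3 to 5 lower in Cbfa2t2_KO. TET partners had 1 higher and 2 to 5 lower in H3.3K27M, and 2 higher and 3 to 7 lower in Cbfa2t2_KO. The 2-oxoglutarate enzymes had 2 to 3 higher and 0 to 1 lower in H3.3K27M, and 4 to 5 higher and 1 to 2 lower in Cbfa2t2_KO. The S-adenosylmethionine cycle had 1 to 4 higher and 1 to 2 lower in H3.3K27M, and 3 to 6 higher and 2 to 3 lower in Cbfa2t2_KO. S-phase genes had 1 to 7 higher and 0 to 3 lower in H3.3K27M, and 4 to 6 higher and 2 to 6 lower in Cbfa2t2_KO. Without H3.3WT replicate 2, for example, 1 S-phase gene was called higher in H3.3K27M.

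Other cell markers moved with the lines beside these lists. Summed over the 5 epithelial markers in both tables, FPKM ran from 225 to 229 in H3.3K27M and 264 to 274 in Cbfa2t2_KO, against 128 to 156 in H3.3WT. The 9 pluripotency markers summed to 1523 to 1732 FPKM in H3.3K27M and 1211 to 1398 FPKM in Cbfa2t2_KO, against 1326 to 1555 FPKM in H3.3WT. Of the 7 tested, 1 rose and 0 fell in H3.3K27M, and 0 rose and 3 fell in Cbfa2t2_KO, each against H3.3WT. Nanog, a pluripotency factor that binds TET proteins, had 8.61 and 9.86 FPKM in H3.3K27M and 3.06 and 2.85 FPKM in Cbfa2t2_KO, against 6.89 and 5.27 FPKM in H3.3WT. The order of Nanog across the groups was that of Dnmt3l. Pou5f1 had 1139 and 1351 FPKM in H3.3K27M and 1014 and 1169 FPKM in Cbfa2t2_KO, against 1069 and 919 FPKM in H3.3WT. In Pou5f1, which made up most of the pluripotency sum in every library, the Cbfa2t2_KO and H3.3WT pairs thus overlapped. The 10 neural stem markers summed to 149 to 161 FPKM in H3.3K27M and 131 to 136 FPKM in Cbfa2t2_KO, against 196 to 200 FPKM in H3.3WT. They did not all move alike. Of the 7 tested, 2 rose and 4 fell in H3.3K27M, and 2 rose and 3 fell in Cbfa2t2_KO. Vim went against the sum, with 34.6 and 41.8 FPKM in H3.3K27M and 27.3 and 26.5 FPKM in Cbfa2t2_KO, against 10.3 and 12.2 FPKM in H3.3WT. Of the defining markers of other brain cells, Gfap, Aqp4, Olig1, Olig2 and Dcx were not in both tables. Nor were the microglial and leukocyte markers Ptprc, Aif1, Cx3cr1, Csf1r and Itgam, and the endothelial markers Pecam1 and Cdh5. Other markers of these types were in both tables. Of the 6 microglial and leukocyte markers only Cd68 was in both tables, with 1.18 to 1.241 FPKM in H3.3WT. It had 2.529 to 2.598 FPKM in H3.3K27M and 3.821 to 4.369 FPKM in Cbfa2t2_KO, and was called higher in both. The 2 astrocyte markers summed to 9.411 to 13.89 FPKM over all libraries, and 1 rose and 1 fell in each line. The 2 oligodendrocyte markers summed to 1.598 to 3.931 FPKM, and the 1 tested was not called in either line. The 4 neuronal markers in both tables summed to 76.8 to 81.5 FPKM in H3.3K27M and 135 to 152 FPKM in Cbfa2t2_KO, against 76.7 to 77.9 FPKM in H3.3WT. The part of these markers in the members' changes was not tested, and in bulk RNA fewer cells of a type and less RNA per cell cannot be told apart.

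The genes whose log2(FPKM + 1) followed each member most closely over the 6 libraries are given as a description, since these libraries share their group and their length trend. Dnmt3l was followed by Adipor1 (Pearson r = 0.999), Nop58 (0.993) and Lypd1 (0.991). Lypd1 had 18.1 and 21.7 FPKM in H3.3K27M and 5.66 and 5.78 FPKM in Cbfa2t2_KO, against 10.5 and 10.1 FPKM in H3.3WT. Uhrf1 was followed by Myo1c (0.998), Dip2a (0.996) and Nr2c1 (0.993), Dnmt1 by Xpo5 (0.995), Rtel1 (0.993) and Lama5 (0.984), Dnmt3b by Erfe (0.987), Cnot3 (0.987) and Wdr54 (0.984), and Dnmt3a by Map3k5 (0.991), Srgap2 (0.968) and Mapkap1 (0.966). Tet1 was followed by Afdn (0.998), Tnrc6b (0.996) and Nrip1 (0.976), and Tet3 by Rnf213 (0.998), Herc2 (0.997) and Prdm2 (0.995). Among the tested members, r was highest between Dnmt3a and Tet1 (0.84), Uhrf1 and Dnmt3b (0.81) and Dnmt1 and Tet1 (0.79). Next came Uhrf1 and Dnmt1 (0.75) and Dnmt1 and Dnmt3b (0.73), and the lowest r was -0.70 between Uhrf1 and Dnmt3l.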

How the data were processed

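RNA was measured by poly(A) RNA-seq in 6 libraries. The authors deposited FPKM in 2 tables, each holding 1 line with H3.3WT. The H3.3WT values of all 14082 shared genes are identical in both. Per the submitters' processing notes, Trim Galore, HISAT2, StringTie and DESeq were used on GRCm38. Versions and the annotation release are not given in the sources used here. In each table every gene reaches 0.500 FPKM in at least 1 library. Low values, multiplied by the longest transcript, were searched for whole multiples of a read step (share 0.291 to 0.318 at the best step, tolerance 0.1). No clear step was found. The search could miss a step if the authors' FPKM used other transcript lengths, so it cannot decide. The depth stays unknown and no counting interval is given. The H3.3K27M columns carry only the letter M, and replicate numbers follow the order of records or columns.

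From the deposited FPKM, limma 3.58.1 (R 4.3.3) was fitted to log2(FPKM + 1) of the genes whose mean over the fitted libraries reached 1 FPKM (eBayes with trend, two-sided, Benjamini-Hochberg over all genes tested, threshold 0.05), in fits of 4 libraries against H3.3WT and of 6 for H3.3K27M against Cbfa2t2_KO. The fits were also run on simulated libraries with known changes and independent normal noise of the fitted size. These lacked the length trend between libraries, so that run does not show how the fits behave under it. Annotation came from GENCODE release M21 and promoters from RefSeq. Figures used matplotlib 3.10.9 in Python 3.11.15. The members and lists were chosen with earlier results of these data known. All 8 members are named. From each list the 2 called genes with the largest log2 change in either line are named, and Igf2 and the markers were named after their values were seen. For likeness, the 3 genes with the highest r were taken, without unnamed gene models. Alternatives were the pseudocount, FPKM minimum, scaling, quantile normalization, eBayes options, a GC and length correction, a fit of all 6 libraries and the omission of each library.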

Additional observations from a re-analysis of the deposited data

How the results depend on the processing

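Of 259 alternative log2 changes of the members, 220 kept their direction and side of the threshold, 8 lost a call, 4 gained one and 27 changed sign, 0 of these with a call in either setting. Of 479 for the list genes named, 440 kept both, 32 lost a call, 7 gained one and 0 changed sign. In Cbfa2t2_KO against H3.3WT, 1 member was called, and 2 were without the FPKM minimum, with median-of-ratios scaling and in the fit of all 6 libraries, whose minimum Dnmt3l passed only through H3.3K27M. With a minimum of 5 FPKM, 0 were called in H3.3K27M against either group, since Dnmt3l was then not tested. Leaving out 1 library gave 0 to 2 called members in Cbfa2t2_KO, 0 to 1 in H3.3K27M and 0 to 2 between the lines. Over all genes these omissions gave 1915 to 3038 calls for Cbfa2t2_KO (4028 in full), 1007 to 2790 for H3.3K27M (3049 in full) and 29 to 786 between the lines (905 in full). A group left with 1 library is assumed to vary like the others.

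Sign changes of uncalled members were, in Cbfa2t2_KO against H3.3WT, Tet1 0.071 and Tet3 0.023 with median-of-ratios scaling, 0.089 and 0.043 with quantile normalization, and 0.18 and 0.0079 with the GC and length correction. In H3.3K27M against H3.3WT, Dnmt1 had -0.00031 with a pseudocount of 0.1 and Dnmt3a 0.035 with the GC and length correction. In H3.3K27M against Cbfa2t2_KO, that correction gave Dnmt1 0.064 and Tet1 -0.029. Leaving out 1 library, changes against H3.3WT ran in Cbfa2t2_KO from -0.73 to 0.023 for Dnmt3a, -0.25 to 0.24 for Tet1 and -0.22 to 0.065 for Tet3. In H3.3K27M they ran from -0.29 to 0.29 for Dnmt1, -0.13 to 0.34 for Uhrf1, -0.35 to 0.57 for Tet1, -0.63 to 0.17 for Dnmt3a and -0.052 to 0.56 for Dnmt3b. Between the lines they ran from -0.27 to 0.52 for Dnmt3a, -0.34 to 0.57 for Tet1 and -0.44 to 0.14 for Dnmt1. The causes were not tested.

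Median-of-ratios scaling moved the median log2 change of all genes from -0.11 to 0.00050 in Cbfa2t2_KO and from -0.12 to 0.0050 in H3.3K27M, and the share of calls that were higher from 37.9% to 50.8% and from 32.1% to 49.0%. No paired analysis was possible because the labels give the libraries no replicate numbers. The unknown depth limits what can be said of Tet2 and of Dnmt3l in Cbfa2t2_KO, all under 1.1 FPKM.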
